A study of Homo sapiens with 16 samples.

Results

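The genes of the human mitochondrial genome are described here in H9 embryonic stem cells after knockdown of SALL4, VRTN, DSCC1 or SEPHS1. Members were all identifiers of the deposited count table whose gene symbol begins with MT-, which are 37 of 60675: 13 mRNAs of the respiratory chain and ATP synthase, 2 rRNAs and 22 tRNAs. Copies of these genes that lie on nuclear chromosomes are no members and were summed separately. H9 is an established human embryonic stem cell line, and every group used the Rex1-EGFP genotype, grown without feeder cells on Matrigel in mTeSR1 and transfected with pooled siRNA at 30 to 50 nM. Cells were harvested 48 h after knockdown of SALL4, a zinc-finger transcription factor of pluripotent cells, or VRTN, vertnin (n = 3 each). They were harvested 72 h after knockdown of DSCC1, a subunit of a clamp loader used in sister chromatid cohesion, or SEPHS1, a homologue of selenophosphate synthetase (n = 3 each). The controls were a pair of siRNAs, one labelled only Control and one against Luciferase (n = 2 each), and for them the labels give no harvest time, so harvest time and knockdown cannot be told apart in any comparison with the controls. Enzymatically made siRNA pools (esiRNAs) were used for SALL4, DSCC1, SEPHS1 and Luciferase, and another supplier's siRNA for VRTN. Poly(A)-selected RNA was sequenced as 80-base single reads, and the design text calls the replicates biological.

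Mitochondrial DNA is a small circular genome that each cell holds in many copies. Each strand is transcribed into long precursors, from which tRNAs are cut out, freeing the rRNAs and mRNAs that lie between them, and most mRNAs then receive a short poly(A) tail. In human cells the mRNA of MT-ND6, the only one read from the light-strand promoter, is known to lack such a tail. The encoded proteins form the membrane cores of NADH dehydrogenase (complex I), the cytochrome bc1 complex (complex III), cytochrome c oxidase (complex IV) and ATP synthase (complex V), while all their partner subunits, and the proteins that copy, transcribe and process this genome, come from nuclear genes.

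The ends of the mRNA genes are shown because the library step selects poly(A) RNA. In 6 of the 13 mRNA genes the annotated gene stops 1 or 2 bases past its last whole codon, so the stop codon is only completed once a tail is added, and the other 7 end in whole codons. The last 15 bases of those 6 genes, from GENCODE release 29 transcripts (GRCh38), are printed 5′ to 3′ on the plus strand, with the bases past the last whole codon in capitals.
MT-ND1, chrM:3307-4262: tccccctcaaaccTA
MT-ND2, chrM:4470-5511: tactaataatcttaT
MT-CO3, chrM:9207-9990: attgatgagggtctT
MT-ND3, chrM:10059-10404: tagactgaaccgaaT
MT-ND4, chrM:10760-12137: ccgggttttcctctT
MT-CYB, chrM:14747-15887: tactcaaatgggccT

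MT-ATP8 and MT-ATP6, which encode neighbouring subunits of the ATP synthase membrane part, lie on one mRNA and share 46 bases, so a read of 80 bases that covers this stretch runs on into one gene or both. The shared stretch is shown with the start codon of MT-ATP6 and the stop codon of MT-ATP8 in capitals. MT-ND4L and MT-ND4 share 7 bases in the same way.
MT-ATP8 and MT-ATP6 overlap, chrM:8527-8572: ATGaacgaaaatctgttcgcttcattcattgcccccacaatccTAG

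All 22 tRNA genes are shorter than the 80-base reads, at 59 to 75 bases. Both tRNA genes that were called in a comparison, MT-TI for isoleucine and MT-TF for phenylalanine, are shown whole.
MT-TI, chrM:4263-4331: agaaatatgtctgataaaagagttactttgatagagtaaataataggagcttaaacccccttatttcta
MT-TF, chrM:577-647: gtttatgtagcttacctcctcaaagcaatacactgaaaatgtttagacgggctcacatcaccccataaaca

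Nuclear copies bear on which gene a read is counted for. MTCO3P12 (chr1:634376-634922, plus strand) matches MT-CO3, the gene of cytochrome c oxidase subunit III, at 98.2% of 547 aligned bases, and of the 705 windows of 80 bases in MT-CO3 the copy holds 11.9% without a difference. The 547 aligned bases hold 10 differences. The window of 80 bases with the most of them, 5 in capitals, is shown.
MT-CO3, chrM:9469-9548: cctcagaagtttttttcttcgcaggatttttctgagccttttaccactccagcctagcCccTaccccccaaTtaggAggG
MTCO3P12, same window: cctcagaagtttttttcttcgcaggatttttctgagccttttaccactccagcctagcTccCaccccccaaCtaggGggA

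The libraries held 18597262 to 28662389 counts, and 14725 to 16634 genes had at least 10 counts in a library. CPM below are counts scaled to a library of 1000000 with TMM factors, and a gene is called where edgeR's quasi-likelihood test, over 19772 genes with enough counts, gives a Benjamini-Hochberg adjusted p under 0.05. SEPHS1 replicate 3 had the lowest TMM factor, 0.775, and the fewest genes with 10 counts, 14725. Each targeted gene was lower in its knockdown: SALL4 averaged 77.9% of the control mean (edgeR adjusted p = 0.0562), VRTN 14.9% (2.04e-16), DSCC1 20.5% (0.486) and SEPHS1 14.9% (9.09e-15), so the SALL4 and DSCC1 decreases were not called. Summed over 10 pluripotency markers, the libraries held 3913 to 4051 CPM after SEPHS1, 3944 to 4041 CPM after DSCC1, 4100.3 to 4512 CPM after VRTN and 3487 to 3531 CPM after SALL4 knockdown, against 3749.8 to 4211 CPM in controls, with POU5F1 and 8 others detected and ZFP42, the gene of REX1, without a count in any library. The 7 fibroblast markers, mostly COL1A1, summed to 1323 to 1553 CPM after SEPHS1, 1737 to 1966 CPM after DSCC1, 535 to 883 CPM after VRTN and 533 to 1346 CPM after SALL4 knockdown, against 1582 to 1838 CPM in controls. The 5 mesoderm markers summed to 54.3 to 74.2 CPM after SEPHS1, 49.0 to 52.3 CPM after DSCC1, 42.5 to 55.0 CPM after VRTN and 63.9 to 161 CPM after SALL4 knockdown, against 60.4 to 73.9 CPM in controls. The pluripotency sum was thus below every control library in the SALL4 libraries. The fibroblast sum was so in the SEPHS1, VRTN and SALL4 libraries, and the mesoderm sum, mostly KDR, in the DSCC1 and VRTN libraries. PODXL had 1005 to 1279 CPM after SALL4 knockdown and 1450 to 1768 CPM in controls. POU5F1 went the other way, with 234 to 243 CPM after SALL4 knockdown and 188 to 207 CPM in controls. The pluripotency list had a median log2 fold change of 0.10 (−0.48 to 0.55) after SALL4 knockdown. For the mesoderm list it was 0.67 (−0.57 to 1.12) after VRTN and 0.0044 (−1.63 to 1.84) after DSCC1 knockdown. The fibroblast list had a median of 0.31 (−0.82 to 4.59) after SALL4 knockdown, against the direction of its sum. Its median was −0.12 (−1.28 to 1.64) after VRTN and −0.25 (−1.42 to 2.89) after SEPHS1 knockdown. The summed markers of neural, endoderm, trophoblast and blood cells reached at most 6.08, 15.6, 6.95 and 0.680 CPM in any library. The part of these markers in the results was not tested.

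Counts on the mitochondrial genome made up 26.4 to 45.5% of a library, and their share was highest after SEPHS1 knockdown. The 37 members took 131322208 of 381443782 counts over the 16 libraries. Their share of the library was 38.7, 38.9 and 45.5% after SEPHS1 knockdown and 33.6, 34.8 and 39.2% after DSCC1 knockdown. It was 29.2, 36.9 and 36.7% after VRTN knockdown and 31.1, 26.4 and 34.8% after SALL4 knockdown, against 33.4 and 30.6% with Control siRNA and 27.9 and 33.1% with Luciferase siRNA. All SEPHS1 and all DSCC1 libraries lay above the 4 control libraries, and the lowest DSCC1 library, at 33.6%, came close to the highest control library, at 33.4%, while the VRTN and SALL4 libraries overlapped the controls. On average the share differed from controls by 9.80 percentage points after SEPHS1 knockdown, 4.60 points after DSCC1 knockdown, 3.03 points after VRTN knockdown and −0.49 points after SALL4 knockdown. Leaving out 1 library at a time moved some of these averages. The SEPHS1 difference stayed at 7.58 to 10.98 points when 1 library at a time was left out. The DSCC1 difference was 2.94 points without DSCC1 replicate 3. The VRTN difference was 5.59, 1.70 and 1.80 points without VRTN replicate 1, 2 or 3 and 1.93 points without Luciferase replicate 1. The SALL4 difference was 1.68 points without SALL4 replicate 2, 0.129 without Luciferase replicate 2 and 0.219 without Control replicate 1, and −2.51 points without SALL4 replicate 3 and −1.59 without Luciferase replicate 1. In bulk RNA, more mitochondrial RNA per cell and less nuclear RNA per cell cannot be told apart, and no test is given for a sum over members.

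**Figure D1:**
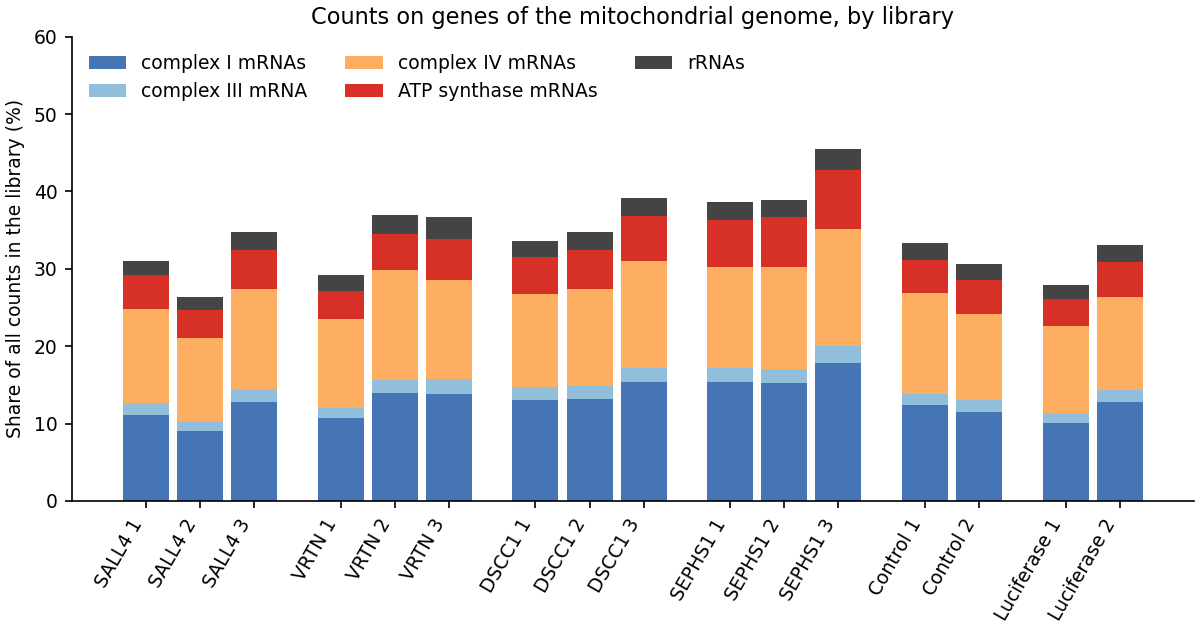
Share of all counts in each library that fell on mitochondrial genes (percent, vertical axis), stacked by respiratory complex of the mRNAs and with the rRNAs on top, for the 16 libraries by siRNA. The SEPHS1 libraries reach 38.7, 38.9 and 45.5%, and the 4 control libraries end between 27.9 and 33.4%.

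Nearly all of this signal was counted on genes transcribed from the heavy-strand promoter. The 28 heavy-strand members held 131322092 counts and the 9 light-strand members 116. By class, the mRNAs took 36.3 to 42.8% of a library after SEPHS1 knockdown and 26.1 to 31.2% in controls, the rRNAs 2.26 to 2.70% after SEPHS1 knockdown and 1.82 to 2.21% in controls, and the tRNAs 0.00639 to 0.00847% after SEPHS1 knockdown and 0.00334 to 0.00579% in controls. None of these ranges overlapped between SEPHS1 knockdown and controls. After DSCC1 knockdown the mRNAs took 31.5 to 36.8%, also above every control library, while the rRNAs and tRNAs overlapped the controls. Of the mRNA signal, complex I took 15.2 to 17.9% of a library after SEPHS1 knockdown and 10.1 to 12.8% in controls, and complex V took 6.11 to 7.65% after SEPHS1 knockdown and 3.47 to 4.53% in controls. Complex IV came nearest to its control range, with 13.1 to 15.2% after SEPHS1 knockdown and 11.2 to 13.0% in controls. After DSCC1 knockdown complex I took 13.1 to 15.4% and complex V 4.77 to 5.76%, both above every control library, and complex IV overlapped the controls.

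Per length of gene, the order of the members was led by the mRNAs of ATP synthase and cytochrome c oxidase. MT-ATP6 had the highest mean in controls, 50581 ± 7578 CPM per kb (SD, n = 4), followed by MT-CO3 at 48804 ± 5837 and MT-CO2 at 46302 ± 6195 CPM per kb, and these neighbours differed by less than their SD. MT-ND4 at 40728 ± 6570.1, MT-ND4L at 32809 ± 3798, MT-CO1 at 26699 ± 3033 and MT-ATP8 at 22352 ± 3676 CPM per kb came next, then MT-ND2 at 17597 ± 2357. MT-CYB and MT-ND1 were level with each other at 11799 ± 1248 and 11731 ± 1386 CPM per kb. At the low end of the mRNAs, MT-ND3 had 6938 ± 963 and MT-ND5 6606 ± 1020.0 CPM per kb, within their spread of each other. MT-RNR1 and MT-RNR2, the rRNAs of the small and large mitochondrial ribosomal subunits, had 3448 ± 373 and 10196 ± 1376 CPM per kb in this poly(A)-selected material. After SEPHS1 knockdown MT-ATP6 stayed first at 97341 ± 22745 CPM per kb, while MT-ND3 had 21361 ± 7047 CPM per kb (SD, n = 3 each) and ranked 9 among the members, against rank 12 in controls. These levels leave out reads counted on nuclear copies. With each gene's copies added, MT-CO3 came first in controls at 75386 ± 9256 CPM per kb and MT-ATP6 second at 67993 ± 10186 (SD, n = 4), within their spread of each other.

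**Figure D2:**
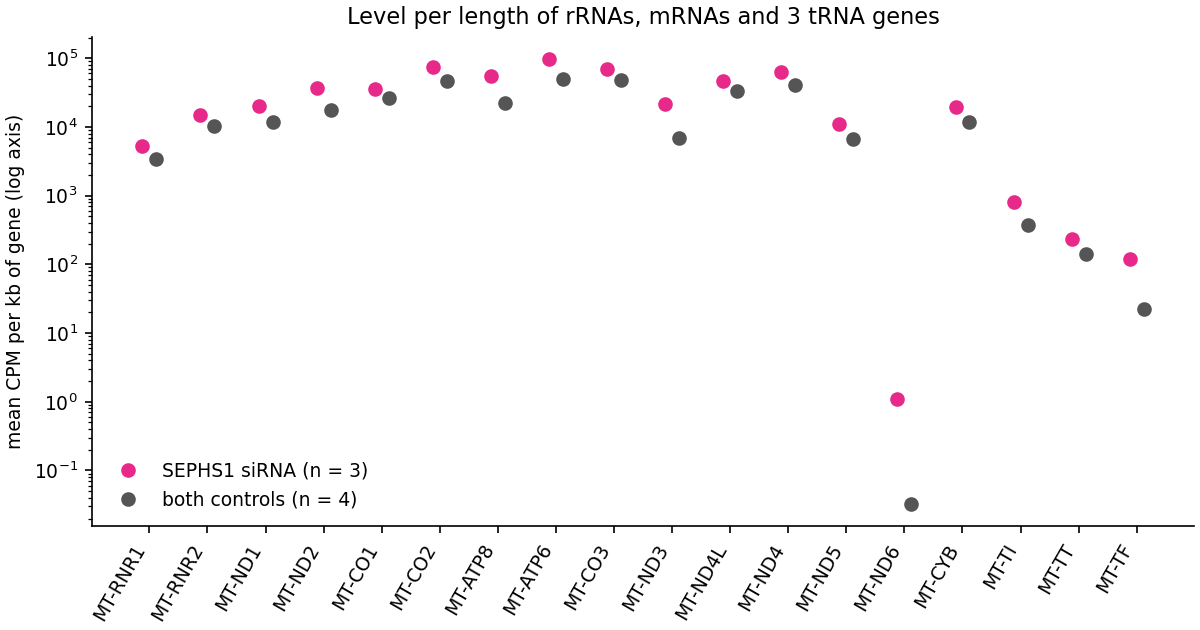
Mean CPM per kb of gene (log axis) for the 2 rRNAs, the 13 mRNAs in order along the mitochondrial genome and 3 tRNA genes, after SEPHS1 knockdown (left point of each pair, n = 3) and in both controls together (right point, n = 4). MT-ATP6 is highest in both, and MT-ND6 lies far below every other mRNA.

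Most of the mitochondrial RNAs that could be tested were higher after SEPHS1 knockdown. Of the 23 members with enough counts for the test, 15 were higher than in controls and 0 lower, against 0.602% of all genes called higher and 0.931% called lower. The 15 were 11 mRNAs, both rRNAs and the tRNA genes MT-TI and MT-TF. The 12 heavy-strand mRNAs had a median log2 fold change of 0.72 (0.41 to 1.63), and in all 12 the SEPHS1 libraries lay above every control library, as they did for 5.25% of all genes. The median over the 23 tested members was 0.66, over all 19772 genes it was −0.020, and 16 of the 23 did not overlap between groups, against 13% of all genes. The count rests in part on SEPHS1 replicate 3, without which 6 members were called, and 9 others (MT-CO2, MT-CYB, MT-ND5, MT-ND4, MT-CO3, MT-TF, MT-RNR2, MT-RNR1 and MT-ND4L) were not, and the count was 9 by DESeq2, 10 by limma-voom, 10 against Luciferase siRNA alone and 5 against Control siRNA alone. Over all genes 303 were called in the main fit, 135 without SEPHS1 replicate 3, 519 by DESeq2 and 158 by limma-voom. Against Luciferase siRNA alone 128 were called, and against Control siRNA alone 103. MT-ND4, MT-TF, MT-RNR2, MT-RNR1 and MT-ND4L were the calls lost by limma-voom and against Luciferase siRNA alone. MT-ND3, MT-ATP8, MT-ND2, MT-ATP6 and MT-ND1 were called under all 19 alternative settings, and MT-TI was lost only against Control siRNA alone (edgeR adjusted p = 0.0532).

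**Figure D3:**
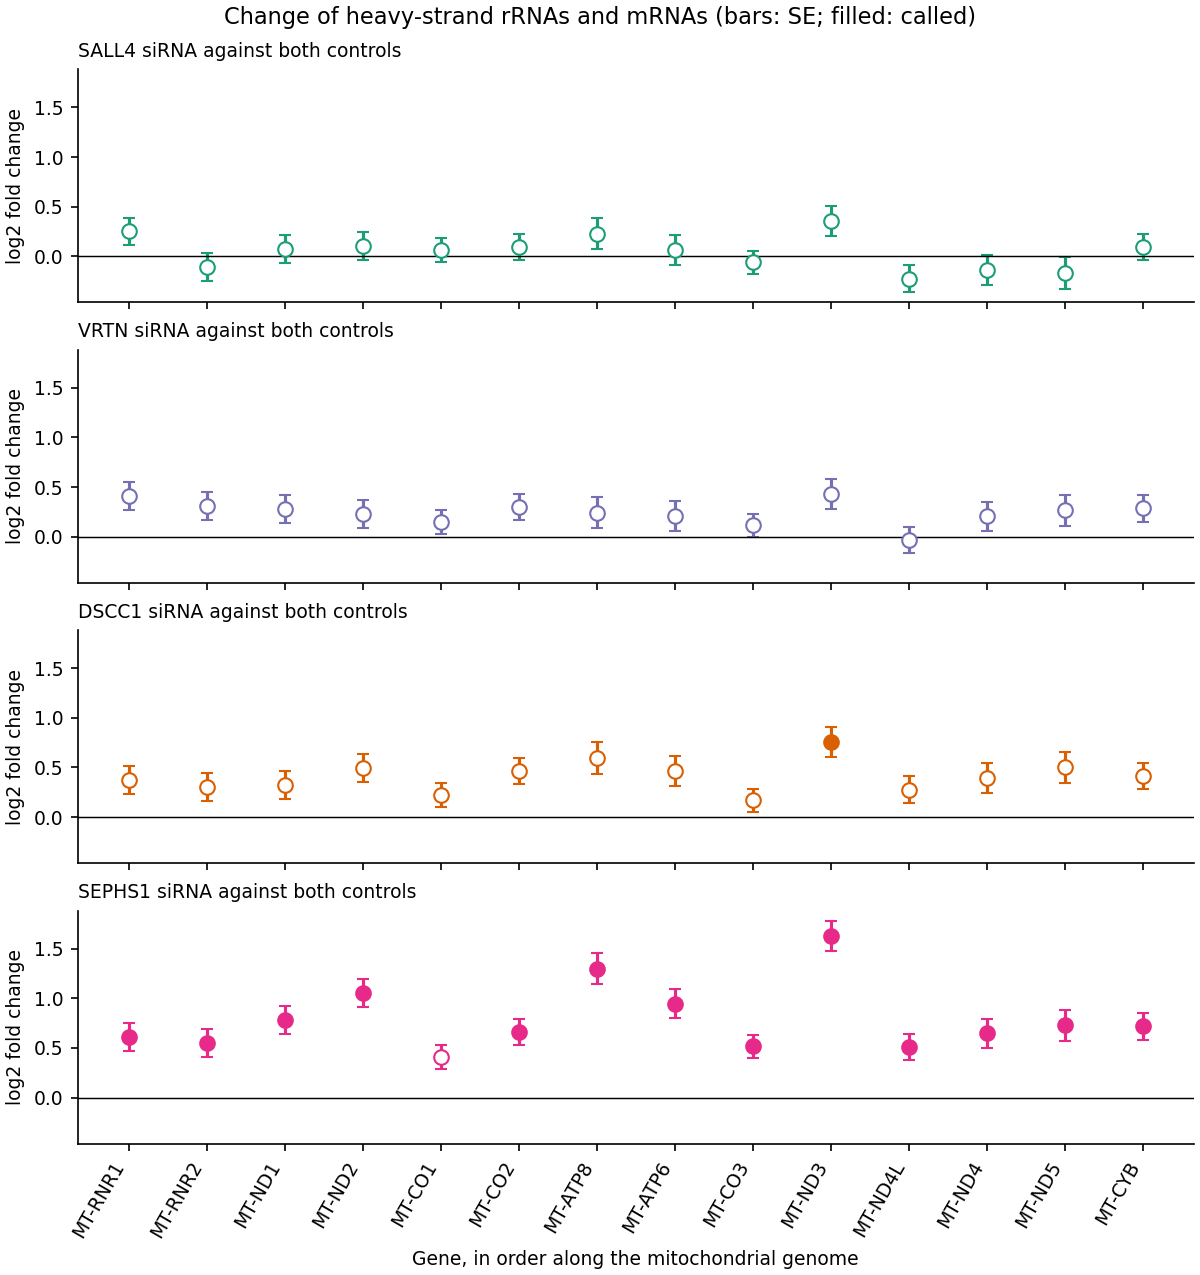
Log2 fold change against both controls (vertical axis, bars ± SE) of the 2 rRNAs and 12 heavy-strand mRNAs in order along the mitochondrial genome (horizontal axis), for each knockdown (panels); filled points were called at an adjusted p under 0.05. After SEPHS1 knockdown 13 of the 14 points are filled and MT-ND3 is highest at 1.63, after DSCC1 knockdown MT-ND3 alone is filled, and no point is filled for SALL4 or VRTN.

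The largest change among the mRNAs was in complex I. MT-ND3 encodes a small subunit of complex I that carries a loop at the quinone-binding side. MT-ND3 had 5339, 6748 and 10086 CPM after SEPHS1 knockdown and 3596, 3778 and 4739.7 CPM after DSCC1 knockdown. It had 2506, 3257 and 3889 CPM after VRTN knockdown and 3366, 2418 and 3429 CPM after SALL4 knockdown, against 2629.8 and 2486 CPM with Control siRNA and 1909 and 2578 CPM with Luciferase siRNA. Every SEPHS1 library was above every other library of the series, and every DSCC1 library was above the SALL4 and control libraries. The difference between SEPHS1 knockdown and controls was 1.63 on the log2 scale, 3.09-fold (SE 0.15, edgeR adjusted p = 2.93e-08). MT-ND2, a proton-pumping subunit, came second in complex I. MT-ND2 had 32293, 33513 and 48578 CPM after SEPHS1 knockdown and 22629, 23314 and 31558 CPM after DSCC1 knockdown. It had 15833, 23512 and 25119.8 CPM after VRTN knockdown and 22178, 15587 and 21179 CPM after SALL4 knockdown, against 20489 and 17966 CPM with Control siRNA and 15022 and 19868 CPM with Luciferase siRNA. All SEPHS1 libraries were above the controls, and so were the DSCC1 libraries, while the SALL4 and VRTN libraries overlapped them. MT-ND2 rose by 1.06 (log2) after SEPHS1 knockdown (SE 0.14, edgeR adjusted p = 2.07e-05). MT-ND1 forms part of the quinone site. MT-ND1 had 16669.6, 16791 and 24323 CPM after SEPHS1 knockdown and 12291, 12858 and 16854 CPM after DSCC1 knockdown. It had 10048, 16287 and 14444 CPM after VRTN knockdown and 13435, 9303 and 12599 CPM after SALL4 knockdown, against 12870.4 and 10158 CPM with Control siRNA and 10131 and 11701 CPM with Luciferase siRNA. The SEPHS1 libraries again lay above the controls, whereas DSCC1 replicates 1 and 2 lay within the control range. MT-ND1 rose by 0.78 (log2) after SEPHS1 knockdown (SE 0.14, edgeR adjusted p = 0.00118). The remaining heavy-strand complex I mRNAs, which encode other subunits of the membrane arm, also rose after SEPHS1 knockdown, MT-ND5 by 0.73 (SE 0.16, edgeR adjusted p = 0.00965), MT-ND4 by 0.65 (SE 0.15, edgeR adjusted p = 0.0165) and MT-ND4L by 0.51 (SE 0.13, edgeR adjusted p = 0.0434). All 6 complex I mRNAs of the heavy strand were called, with a median log2 fold change of 0.76.

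**Figure D4:**
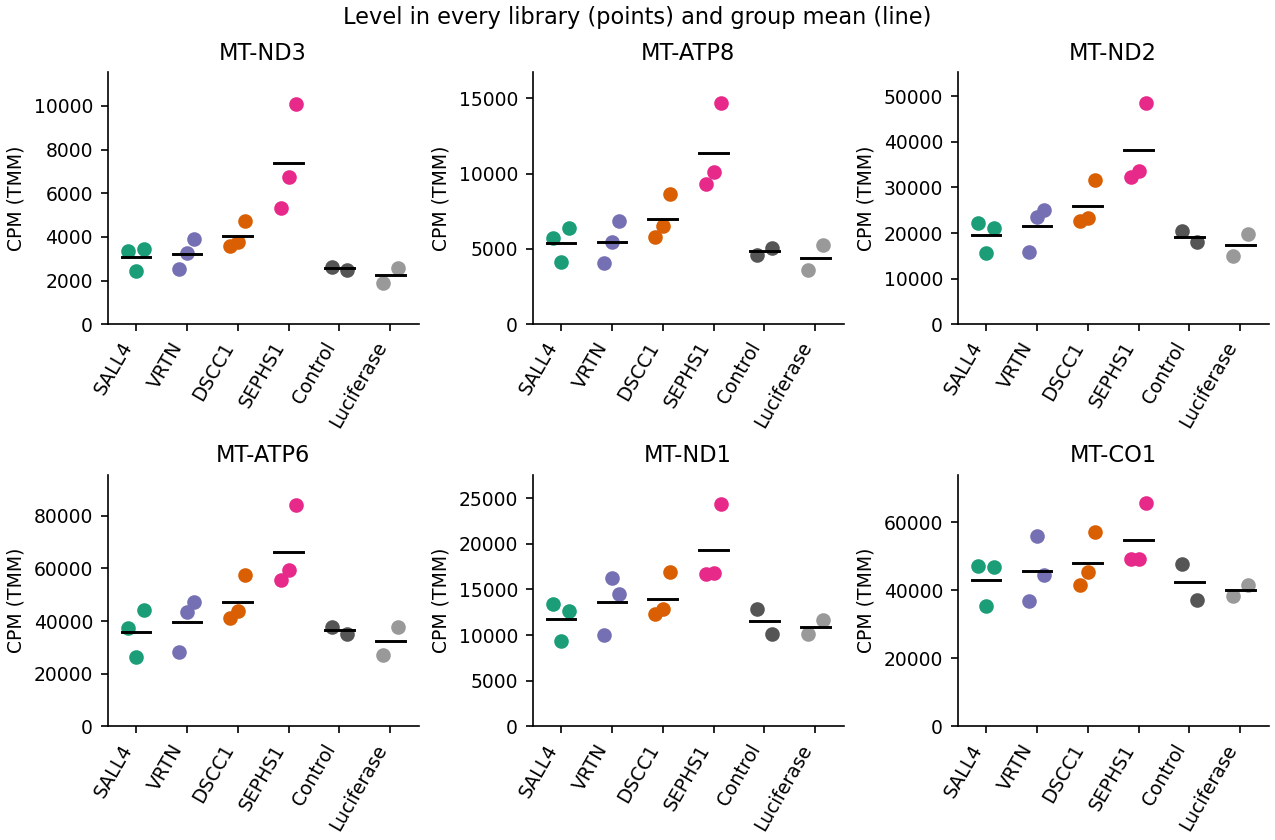
TMM-scaled CPM (vertical axes) of 6 mitochondrial mRNAs in every library (points) with the group mean (line), by siRNA, each axis starting at 0. The SEPHS1 points lie above all control points in each panel. Relative to the control level, the margin is widest for MT-ND3 (5339 CPM and above, against 2630 CPM and below in controls) and narrowest for MT-CO1.

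Both ATP synthase mRNAs rose after SEPHS1 knockdown. MT-ATP8 encodes a short membrane subunit. MT-ATP8 had 9339.9, 10091 and 14652 CPM after SEPHS1 knockdown and 5786, 6512 and 8666 CPM after DSCC1 knockdown. It had 4052, 5489 and 6849.5 CPM after VRTN knockdown and 5701, 4132 and 6391 CPM after SALL4 knockdown, against 4595 and 5070.1 CPM with Control siRNA and 3568 and 5274 CPM with Luciferase siRNA. SEPHS1 libraries held the 3 highest values of the series, and the DSCC1 libraries also lay above the controls. The log2 fold change after SEPHS1 knockdown was 1.30 (SE 0.16, edgeR adjusted p = 5.38e-06). MT-ATP6 encodes the subunit that forms the proton channel. MT-ATP6 had 55509.7, 59319.8 and 84039 CPM after SEPHS1 knockdown and 41227, 43700.0 and 57304 CPM after DSCC1 knockdown. It had 28387, 43472 and 47176 CPM after VRTN knockdown and 37178, 26380.0 and 44083 CPM after SALL4 knockdown, against 37915 and 35200.3 CPM with Control siRNA and 26931 and 37735 CPM with Luciferase siRNA. The SEPHS1 libraries did not overlap the controls, nor did the DSCC1 libraries. MT-ATP6 rose by 0.95 (log2) after SEPHS1 knockdown (SE 0.15, edgeR adjusted p = 0.000338). MT-ATP8 had 0.168, 0.170 and 0.174 counts per MT-ATP6 count after SEPHS1 knockdown, although both genes share a transcript. That ratio was 0.140 to 0.151 after DSCC1, 0.126 to 0.145 after VRTN and 0.145 to 0.157 after SALL4 knockdown, against 0.121 and 0.144 with Control siRNA and 0.132 and 0.140 with Luciferase siRNA. The SEPHS1 and SALL4 libraries lay above every control library, and the DSCC1 and VRTN libraries overlapped the controls. How reads in their 46 shared bases were counted is not given in the sources used here.

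The complex III mRNA and most complex IV mRNAs also rose after SEPHS1 knockdown. MT-CYB encodes cytochrome b, the one complex III subunit of this genome. MT-CYB had 19002, 19702 and 27662 CPM after SEPHS1 knockdown and 16319.8, 16402 and 21074 CPM after DSCC1 knockdown. It had 11993, 18024 and 19175 CPM after VRTN knockdown and 14949.7, 11404 and 16644 CPM after SALL4 knockdown, against 14552 and 13709.6 CPM with Control siRNA and 11391 and 14198 CPM with Luciferase siRNA. SEPHS1 and DSCC1 libraries were all above the controls. MT-CYB rose by 0.72 (log2) after SEPHS1 knockdown (SE 0.13, edgeR adjusted p = 0.00196). MT-CO2 encodes the cytochrome c oxidase subunit whose copper centre first accepts electrons from cytochrome c. MT-CO2 had 41746, 45009 and 63553 CPM after SEPHS1 knockdown and 39270.3, 40248 and 51653 CPM after DSCC1 knockdown. It had 30112, 44076 and 42552 CPM after VRTN knockdown and 35003, 26858 and 39562 CPM after SALL4 knockdown, against 36592 and 30125 CPM with Control siRNA and 26699 and 33265 CPM with Luciferase siRNA. The same separation was seen, with both 72 h knockdowns above every control library. MT-CO2 rose by 0.66 (log2) and MT-CO3 by 0.52 after SEPHS1 knockdown (SE 0.13, edgeR adjusted p = 0.00472, and SE 0.11, edgeR adjusted p = 0.0133). MT-CO1, which encodes the catalytic subunit, was not called. It had 49167, 49279 and 65703 CPM after SEPHS1 knockdown, against 47599 and 37112 CPM with Control siRNA and 38403 and 41568 CPM with Luciferase siRNA, a log2 fold change of 0.41 (SE 0.12, edgeR adjusted p = 0.0842) with no overlap between groups. The median log2 fold change after SEPHS1 knockdown was 0.52 for the 3 complex IV mRNAs and 1.12 for the 2 ATP synthase mRNAs.

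The mix of mitochondrial mRNAs also differed between SEPHS1 knockdown and controls. MT-ND3 made up 1.38, 1.69 and 1.83% of mitochondrial mRNA counts after SEPHS1 knockdown and 0.832 to 0.942% in controls. MT-ATP8 took 2.42 to 2.65% after SEPHS1 knockdown and 1.495 to 1.921% in controls. In the other direction, MT-CO1 took 11.9 to 12.7% after SEPHS1 knockdown and 14.1 to 16.7% in controls. It took 13.3 to 13.8% after DSCC1 knockdown, also below every control library, while the VRTN and SALL4 libraries overlapped the controls. By complex, complex V took 16.8 to 17.9% after SEPHS1 knockdown and 13.3 to 15.3% in controls, complex IV 35.4 to 36.2% after SEPHS1 knockdown and 38.9 to 43.1% in controls, and complex I 41.4 to 42.3% after SEPHS1 knockdown and 38.7 to 41.6% in controls. The complex V and complex IV ranges did not overlap, and the complex I ranges did. Complex IV took 37.6 to 38.8% after DSCC1 knockdown, also below every control library, while the VRTN and SALL4 libraries overlapped the controls. Set against MT-CO1 within each library, MT-ND3 had 0.133 ± 0.023 counts per MT-CO1 count after SEPHS1 knockdown and 0.0845 ± 0.0019 after DSCC1 knockdown (SD, n = 3 each), against 0.0585 ± 0.0076 in controls (SD, n = 4). That ratio was 0.0584 to 0.0874 after VRTN knockdown, overlapping the controls, and 0.0684 to 0.0734 after SALL4 knockdown, above every control library (0.0497 to 0.0670). Of mitochondrial mRNA counts after SALL4 knockdown, MT-ND3 took 1.06 to 1.18% and MT-ATP8 1.940 to 2.002%, both also above the controls. MT-ND3 took 1.12 to 1.16% after DSCC1 knockdown, above them too. MT-CO2 took 12.2 to 12.6% after SALL4, VRTN and DSCC1 knockdown, above the 11.3 to 11.9% of controls. MT-ND4L took 2.87 to 3.29% after SALL4 and 2.88 to 3.11% after VRTN knockdown, below the 3.36 to 3.84% of controls. For MT-CO2 and MT-ND4L the SEPHS1 libraries overlapped the controls. These ratios need no scaling between libraries, and no test was made of them because the genes were picked for their change.

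Both rRNAs rose after SEPHS1 knockdown. MT-RNR1 is the rRNA of the small ribosomal subunit. MT-RNR1 had 4342, 4365 and 6357 CPM after SEPHS1 knockdown and 3899, 4188 and 4719 CPM after DSCC1 knockdown. It had 3104, 4463 and 5558 CPM after VRTN knockdown and 3957, 3256 and 4522 CPM after SALL4 knockdown, against 3601 and 3157 CPM with Control siRNA and 2848 and 3553 CPM with Luciferase siRNA. SEPHS1 and DSCC1 libraries all lay above the controls. Its log2 fold change after SEPHS1 knockdown was 0.61 (SE 0.14, edgeR adjusted p = 0.0154). MT-RNR2 is the rRNA of the large subunit. MT-RNR2 had 20815, 20216 and 28539.7 CPM after SEPHS1 knockdown and 16432, 20102 and 22082 CPM after DSCC1 knockdown. It had 14101, 20839 and 23921 CPM after VRTN knockdown and 13478, 12144 and 18437 CPM after SALL4 knockdown, against 17719 and 15359.9 CPM with Control siRNA and 13088 and 17414 CPM with Luciferase siRNA. SEPHS1 libraries were all above the controls, and DSCC1 replicate 1 lay within their range. MT-RNR2 rose by 0.55 (log2) after SEPHS1 knockdown (SE 0.14, edgeR adjusted p = 0.0394). MT-RNR2 had 3.41, 3.73 and 4.08 counts per MT-RNR1 count after SALL4 knockdown, the 3 lowest values of the series. That ratio was 4.49 to 4.79 after SEPHS1 knockdown, 4.21 to 4.80 after DSCC1 knockdown and 4.30 to 4.67 after VRTN knockdown, against 4.92 and 4.86 with Control siRNA and 4.60 and 4.90 with Luciferase siRNA. The ratio was picked out after its values were seen and was not tested.

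Among the tRNA genes, most of the few counts fell on MT-TI. The 22 tRNA genes had 22269 counts over the 16 libraries, 14295 of them on MT-TI, and 8 (MT-TA, MT-TC, MT-TG, MT-TR, MT-TH, MT-TS2, MT-TL2 and MT-TE) had no count in any library. MT-TI, next to MT-ND1 on the genome, had 36.5, 61.6 and 71.6 CPM after SEPHS1 knockdown and 27.6, 40.4 and 35.6 CPM after DSCC1 knockdown, against 32.6 and 23.9 CPM with Control siRNA and 17.7 and 28.9 CPM with Luciferase siRNA. It had 32.6, 43.8 and 44.3 CPM after VRTN knockdown and 42.5, 31.5 and 37.9 CPM after SALL4 knockdown. The lowest SEPHS1 library was above the highest control library, whereas SALL4, VRTN and DSCC1 each overlapped the controls. MT-TI rose by 1.14 (log2) after SEPHS1 knockdown (SE 0.20, edgeR adjusted p = 0.000996). MT-TF, at the start of the heavy-strand transcript and next to MT-RNR1, had 116, 116 and 247 counts after SEPHS1 knockdown and 67.0, 133 and 196 after DSCC1 knockdown, against 63.0 and 35.0 with Control siRNA and 24.0 and 49.0 with Luciferase siRNA. MT-TF had 29, 58 and 120 counts after VRTN knockdown and 152, 43 and 68 after SALL4 knockdown. In CPM, SALL4 replicate 1 (5.17) lay above the lowest SEPHS1 library (4.95). It rose by 2.37 (log2) after SEPHS1 knockdown (SE 0.53, edgeR adjusted p = 0.0134), a value that rests on few counts. MT-TT, for threonine, had 19.1, 13.5 and 13.1 CPM after SEPHS1 knockdown, against 13.6 and 7.93 CPM with Control siRNA and 5.95 and 9.67 CPM with Luciferase siRNA, a log2 fold change of 0.74 that was not called (SE 0.28, edgeR adjusted p = 0.228). MT-TM, MT-TL1, MT-TW, MT-TD and MT-TK were tested and not called in any comparison, with 0 to 151 counts in a library, and the other 14 tRNA genes were left out of the test for low counts.

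Genes of the light strand had almost no counts in these libraries. MT-ND6, the complex I subunit encoded there (chrM:14149-14673, minus strand), had 0, 0 and 30 counts after SEPHS1 knockdown, 0, 15 and 0 after DSCC1 knockdown, 3, 1 and 1 after VRTN knockdown and 0 in each SALL4 library, against 2 and 0 with Control siRNA and 0 and 0 with Luciferase siRNA. Most of its 52 counts lay in 1 SEPHS1 and 1 DSCC1 library, and no fold change is given because the groups are at or near the floor of 3 counts per library. The 8 light-strand tRNA genes had 64 counts together. The strand setting used in counting is not given in the sources used here, and whether it bears on these values was not tested.

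After DSCC1 knockdown, harvested at 72 h like SEPHS1, 1 member was called. Of the 23 tested members, MT-ND3 was higher and 0 were lower, against 0.0455% of all genes called in either direction. An unadjusted p under 0.05 was reached by 14 members and by 1155 of all 19772 genes. DESeq2 called 0 members and limma-voom 1, with 47 and 41 of all genes called. The MT-ND3 difference was 0.75 on the log2 scale, 1.69-fold (SE 0.15, edgeR adjusted p = 0.0482). MT-TF had a log2 fold change of 1.84 (SE 0.52, edgeR adjusted p = 0.351) on 67 to 196 counts after DSCC1 knockdown and 24 to 63 in controls, with no overlap, and was not called. Among the mRNAs, MT-ATP8 came after MT-ND3 at 0.60 (SE 0.16, edgeR adjusted p = 0.281), MT-ND5 at 0.50, MT-ND2 at 0.50 and MT-CO2 at 0.47, none of them called. The 12 heavy-strand mRNAs had a median log2 fold change of 0.44 (0.17 to 0.75), and 11 of the 23 tested members did not overlap between groups, against 9.1% of all genes. The call of MT-ND3 was lost under 9 of 19 alternatives, among them leaving out any one of the 3 DSCC1 libraries, DESeq2 and either control siRNA alone. The count of called members rose without Luciferase replicate 2, Control replicate 1 or Control replicate 2, and so did the count over all genes.

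Set against each other at the same harvest time, DSCC1 knockdown and SEPHS1 knockdown differed in 1 member. MT-ND3 averaged 4038 ± 615 CPM after DSCC1 knockdown and 7391 ± 2438 CPM after SEPHS1 knockdown (SD, n = 3 each), a log2 fold change of −0.87 (95% interval −1.21 to −0.54, SE 0.16, edgeR adjusted p = 0.00813), against 0.0303% of all genes called lower. The 3 DSCC1 libraries lay below the 3 SEPHS1 libraries. Next by p were MT-ATP8 at −0.70 (SE 0.17, edgeR adjusted p = 0.0647), MT-ND2 at −0.56 (SE 0.15, edgeR adjusted p = 0.121), MT-TT at −1.04 (SE 0.31, edgeR adjusted p = 0.171) and MT-TI at −0.71 (SE 0.22, edgeR adjusted p = 0.193), none of them called. For an uncalled member the missed threshold does not show that the knockdowns act alike: the 95% interval was −0.46 to 0.07 for MT-CO1 and −0.76 to −0.16 for MT-ND1. The 12 heavy-strand mRNAs were all lower after DSCC1 than after SEPHS1 knockdown, with a median of −0.33 (−0.87 to −0.19). An unadjusted p under 0.05 was reached by 12 of the 23 tested members and by 1894 of all 19772 genes. Without SEPHS1 replicate 3, DSCC1 replicate 1 or DSCC1 replicate 2 0 members were called, as by DESeq2, and without DSCC1 replicate 3 there were 2. In these settings, in that order, 43, 24, 22, 188 and 27 of all genes were called in either direction.

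After neither 48 h knockdown was a member called. After VRTN knockdown 0 of 23 tested members were called, against 1.13% of all genes in either direction. An unadjusted p under 0.05 was reached by 6 members and by 1859 of all 19772 genes. DESeq2 and limma-voom also called 0 members, with 392 and 348 of all genes called. The members with the smallest p were MT-TI at 0.65 (SE 0.20, edgeR adjusted p = 0.135), MT-RNR1 at 0.41 (SE 0.14, edgeR adjusted p = 0.201) and MT-ND3 at 0.43 (SE 0.15, edgeR adjusted p = 0.249). The VRTN libraries varied among themselves: replicate 1 lay below the control mean for every heavy-strand mRNA except MT-ND3, and replicates 2 and 3 lay above it for each. After SALL4 knockdown 0 of 23 were called, against 2.98% of all genes. An unadjusted p under 0.05 was reached by 2 members and by 2584 of all 19772 genes. The 2 were MT-TI at 0.54 (SE 0.20, edgeR adjusted p = 0.176) and MT-ND3 at 0.36 (SE 0.15, edgeR adjusted p = 0.28). DESeq2 and limma-voom called 0 members, with 814 and 1291 of all genes called. The median over the 12 heavy-strand mRNAs was 0.24 after VRTN knockdown and 0.07 after SALL4 knockdown. Without Luciferase replicate 2 or without Control replicate 1, members were called higher after VRTN and after SALL4 knockdown. The count over all genes then rose after VRTN knockdown. After SALL4 knockdown it fell without Luciferase replicate 2 and rose without Control replicate 1. Without VRTN replicate 1, 1 member was called higher after VRTN knockdown. Of all genes 141 were then called in either direction, against 223 with all libraries. SALL4 against VRTN knockdown, at the same harvest time, also gave 0 calls, against 2.44% of all genes. In this comparison 4 members and 2428 of all 19772 genes had an unadjusted p under 0.05. DESeq2 called 0 members and limma-voom 1, with 688 and 897 of all genes called. MT-RNR2 averaged 14687 ± 3316 CPM after SALL4 knockdown and 19620 ± 5022 CPM after VRTN knockdown (SD, n = 3 each), a log2 fold change of −0.42 (SE 0.15, edgeR adjusted p = 0.177). Without SALL4 replicate 3, 4 members were called lower than after VRTN knockdown, and without VRTN replicate 1 there was 1. Over all genes 879 and 299 were then called in either direction, against 482 with all libraries. Between the control siRNAs, Control against Luciferase, 0 of 23 members were called by edgeR, DESeq2 or limma-voom, against 0% of all genes by edgeR. Of the members 0 had an unadjusted p under 0.05, against 211 of all 19772 genes. The 12 heavy-strand mRNAs were 0.08 to 0.19 higher (log2) with Control siRNA.

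Nuclear copies took a sizeable part of the reads that resemble some of these genes. The 404 copies named in the table held 8.49, 8.49 and 9.88% of a library after SEPHS1 knockdown and 6.27 to 7.52% in controls. Of the counts on a gene and its copies together, the copies took 33.9% for MT-CO3, 27.1% for MT-ND2, 26.7% for MT-ATP6, 25.2% for MT-CO1, 22.1% for MT-ND1, 10.3% for MT-CO2 and 6.59% for MT-ND4, and at most 1.76% for each of the other genes. For MT-ND3, the member that changed most among the mRNAs, the copies held 0.0039%, and its leading copy matches it at 86.4% of aligned bases with no shared window of 80 bases. For MT-ATP8 the copies held 0.278%. Of the 12 leading copies tested, 7 were called higher after SEPHS1 knockdown and 0 lower, against 0.602% of all genes called higher: MTATP8P1 was higher by 1.76 (edgeR adjusted p = 0.000292), MTND2P28 by 1.12 (6.43e-06), MTATP6P1 by 1.08 (0.000107), MTND4P12 by 1.02 (0.000316), MTND1P23 by 0.92 (0.000347), MTCO2P12 by 0.82 (0.000467) and MTRNR2L12 by 0.69 (0.0133). MTCO3P12, at 0.36 (edgeR adjusted p = 0.139), MTCO1P12, at 0.29 (0.356), MTND5P11, MTND4LP30 and MTCYBP35 were not called. Counts of the genes and copies that share windows are uncertain, since the counting could split such reads. Caution also holds for MTND4P12 and MTATP8P1, which were called but share no window of 80 bases with MT-ND4 and MT-ATP8. How reads came to be counted on these copies was not tested. With each gene's copies added to it, 15 members were again called after SEPHS1 knockdown.

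**Figure D5:**
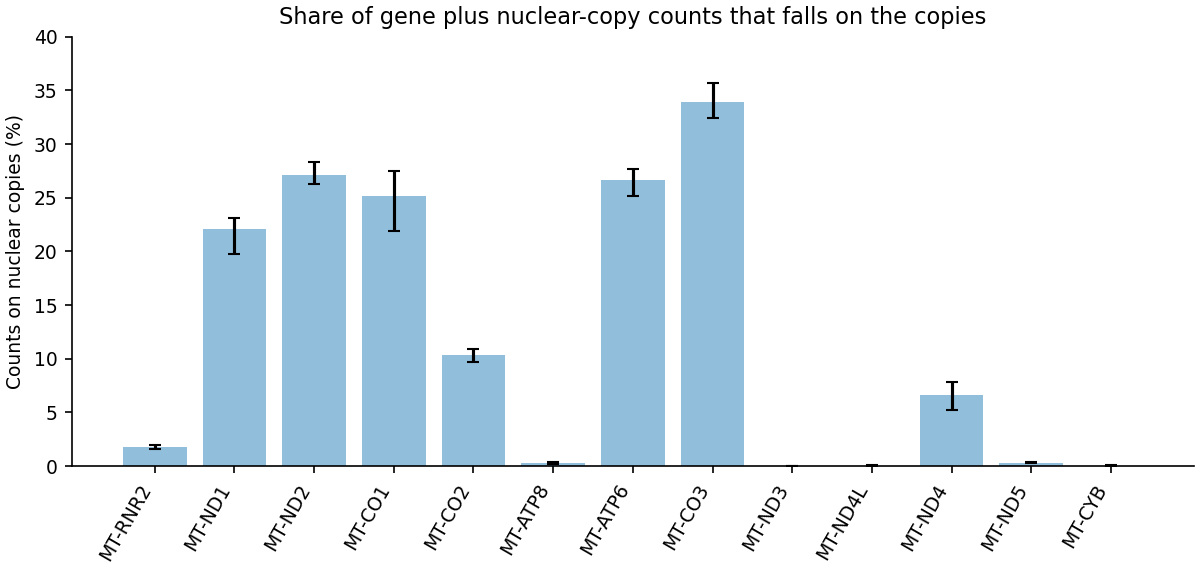
Share of the counts on a mitochondrial gene and its nuclear copies together that fell on the copies (percent, vertical axis), over all 16 libraries, with bars from the lowest to the highest library. MT-CO3 is highest at 33.9%, and MT-ND3, MT-ND4L and MT-CYB are near 0.

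The nuclear genes that build and maintain the same system are given by list. After SEPHS1 knockdown 3 of 78 tested nuclear subunits of the respiratory chain and ATP synthase were called higher by edgeR and 0 lower, against 0.602% of all genes called higher, and their median log2 fold change was 0.24. DESeq2 called 8 higher and 0 lower, limma-voom 3 higher and 0 lower, and 21 had an unadjusted p under 0.05. Of all 19772 genes, 2529 had such a p after SEPHS1, 1155 after DSCC1, 1859 after VRTN and 2584 after SALL4 knockdown. The edgeR calls were ATP5MF, a membrane subunit of ATP synthase, by 1.63 (SE 0.23, edgeR adjusted p = 4.86e-05), NDUFA3, an accessory complex I subunit, by 0.85 (SE 0.13, 0.000309), and NDUFS3, a core complex I subunit, by 0.65 (SE 0.17, 0.0438). Of 18 genes for replication and upkeep of mitochondrial DNA, LIG3, its DNA ligase, rose by 0.59 (SE 0.13, edgeR adjusted p = 0.0144) and 17 were not called. All 11 tested genes of mitochondrial transcription, all 19 of mitochondrial RNA processing, all 12 of mRNA stability and decay and all 11 regulators of mitochondrial biogenesis were not called by edgeR after SEPHS1 knockdown, where 1.53% of all genes were called in either direction, with list medians from −0.10 to −0.0032. In these 4 lists 3, 4, 0 and 2 genes had an unadjusted p under 0.05, limma-voom called 0, and DESeq2 called 1 transcription gene lower and 1 biogenesis regulator higher. Of 13 tested genes of the mitochondrial unfolded protein and integrated stress responses, 0 were called after SEPHS1 knockdown by edgeR, DESeq2 or limma-voom, and 4 had an unadjusted p under 0.05. After SALL4, VRTN and DSCC1 knockdown edgeR called 0 genes in the lists of mitochondrial DNA and RNA upkeep and biogenesis, where 0 to 4 genes of a list had an unadjusted p under 0.05 and DESeq2 or limma-voom called at most 1. Among the 78 nuclear subunits, 1 was called higher after DSCC1 knockdown (NDUFA3), 1 after VRTN knockdown (ATP5MF) and 5 after SALL4 knockdown (COX7C by 0.77, COX6B1, COX8A, UQCRC1 and ATP5MF by 0.96) by edgeR, which called 0 lower; over all genes 0.445% were called higher after VRTN knockdown and 1.85% after SALL4 knockdown. After DSCC1 knockdown edgeR called 0.0455% of all genes in either direction. DESeq2 called 1 higher and 0 lower after DSCC1, 3 and 0 after VRTN and 7 and 1 after SALL4 knockdown. For limma-voom these were 1 and 0 after DSCC1, 1 and 1 after VRTN and 8 and 2 after SALL4 knockdown, and 15, 11 and 22 had an unadjusted p under 0.05 after DSCC1, VRTN and SALL4 knockdown. Over all genes DESeq2 called 519 after SEPHS1, 47 after DSCC1, 392 after VRTN and 814 after SALL4 knockdown, in either direction. In the same order limma-voom called 158, 41, 348 and 1291. In the stress response list, PCK2, mitochondrial phosphoenolpyruvate carboxykinase, fell by 1.36 after SALL4 knockdown (SE 0.22, edgeR adjusted p = 0.00021), where 1.13% of all genes were called lower. In that list after SALL4 knockdown DESeq2 called 2 lower, limma-voom 2 higher and 1 lower, and 6 of 13 had an unadjusted p under 0.05. In the stress response list 0 genes were called by edgeR after VRTN or DSCC1 knockdown, with 2 at an unadjusted p under 0.05 in each and 1 called lower by DESeq2 and by limma-voom after VRTN knockdown. Of nuclear RNAs known to lack a poly(A) tail, 5 could be tested and 0 were called by edgeR, DESeq2 or limma-voom in any knockdown, with 0 or 1 at an unadjusted p under 0.05; their median log2 fold change after SEPHS1 knockdown was 0.07. The 3 tested nuclear-retained RNAs also had 0 calls by these tools, with 2 at an unadjusted p under 0.05 after DSCC1 knockdown and 0 in each other knockdown. Their median log2 fold change after DSCC1 knockdown was −1.87 (−1.98 to −0.26), at levels of a few CPM: MALAT1 averaged 1.01 ± 0.61 CPM after DSCC1 knockdown (SD, n = 3) and 3.78 ± 1.40 CPM in controls (SD, n = 4). Whether this bears on the DSCC1 share of mitochondrial counts was not tested. These lists, like the members, describe the libraries and were not tested as sets.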

How the data were processed

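Poly(A)-selected RNA of H9 cells was sequenced in 16 libraries. Per the submitters' processing notes, the authors used STAR 2.4.0.1 for alignment to GRCh38 and HTSeq 0.9.1 for counting. The annotation release, strand setting and handling of reads shared between genes are not given in the sources used here. The deposited table holds raw counts for 60675 Ensembl identifiers. Symbols came from a gene name table for 56558 of them and from GENCODE release 29 for 497 more, and 3620 had none. Positions and sequences are those of GENCODE release 29.

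After filterByExpr, 19772 genes were scaled by TMM and tested in R 4.3.3 with edgeR 4.0.16 (quasi-likelihood, all 6 groups in the model). P-values were adjusted by Benjamini-Hochberg over all tested genes, with calls at an adjusted p under 0.05. The SE was taken from the log2 fold change and its F statistic, and the common dispersion was 0.347. Comparisons were each knockdown against both controls averaged, SALL4 against VRTN, DSCC1 against SEPHS1, and Control against Luciferase. P-values measure the spread between these replicates.

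Totals were 18597262 to 28662389 counts, and a floor of 3 counts was 0.105 to 0.161 CPM before TMM scaling. Reads carry no molecular identifiers, so floors cover counting error only. The pipeline was tested on simulated data. Alternatives were other scalings, filters, tools (DESeq2 1.42.0, and limma-voom from limma 3.58.1), controls and sample sets, a replicate block, and each library left out. Adding each gene's nuclear copies to its counts or its level per kb was chosen after seeing the data.

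All 37 members may be named. Values in every library are given for both rRNAs, MT-ND6 and the 8 called members with the smallest p. MT-CO1, MT-TF and MT-TT were added after their values were seen. Of each nuclear list up to 4 called genes may be named for a knockdown. The members and lists were chosen with earlier results of these data known.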

Additional observations from a re-analysis of the deposited data

Results flagged for a closer look

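Over the 4 control libraries, 27 values (each tested member and summed shares) were checked for a library far from the other 3, and 4 met the criterion; chance gives about 1 in 20. The 4 libraries come from a pair of siRNAs with 2 replicates each. MT-ND4L, a complex I mRNA, had 8063 CPM in Luciferase replicate 1 and 10136 to 10439 CPM in the other 3. The remaining 3 rest on very few counts. MT-TW had 1.96 CPM in Control replicate 1 and 0.378 to 0.640 CPM in the others, MT-TD had 0.447 CPM there and 0 to 0.0680 CPM in the others, and MT-ND6 had 0.0687 CPM there and 0 in the others.

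The MT-ND3 response differed between the 72 h knockdowns by the test of the difference itself, at −0.87 on the log2 scale for DSCC1 against SEPHS1 (edgeR adjusted p = 0.00813). The 3 DSCC1 libraries were all below the 3 SEPHS1 libraries.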

How the results depend on the processing

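Without a filter on low counts, the number of called members was 2 for SALL4, 6 for VRTN, 10 for DSCC1, 3 for SALL4 against VRTN and 7 for DSCC1 against SEPHS1. With a replicate block these were 3 (all lower) for SALL4, 2 for DSCC1, 3 for SALL4 against VRTN and 6 for DSCC1 against SEPHS1, and 15 for SEPHS1, the same count as without the block. Over all genes, the fit without a filter called 847 for SALL4, 397 for VRTN and 99 for DSCC1. It called 726 for SALL4 against VRTN and 151 for DSCC1 against SEPHS1. The block gave 820 for SALL4, 15 for DSCC1 and 270 for SEPHS1. For SALL4 against VRTN it gave 686, and for DSCC1 against SEPHS1 147. Same-numbered libraries correlated at −0.21 to 0.28 in their deviations from group means over 36 pairs (median 0.012), so the numbers were not taken to pair the samples. The controls have no replicate 3. Replicate 3 had the highest mitochondrial share after SALL4 (34.8%), DSCC1 (39.2%) and SEPHS1 knockdown (45.5%), but not after VRTN knockdown. Whether the replicate number bears on the members was not tested. DESeq2 gave 9 for SEPHS1 against 15 by edgeR, 0 for DSCC1 and 0 for DSCC1 against SEPHS1, and limma-voom gave 10 for SEPHS1 and 1 for SALL4 against VRTN. For DSCC1 the count was also 0 with DESeq2 size factors, upper quartile scaling, a stricter filter, Luciferase alone or Control alone as control, and 3 with only the groups compared. For SEPHS1 it was 5 against Control alone and 10 against Luciferase alone, and for DSCC1 against SEPHS1 it was 2 with only the groups compared. With only the groups compared, 37 of all genes were called for DSCC1 and 37 for DSCC1 against SEPHS1. Causes were not tested.

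Leaving out 1 library at a time gave 0 to 2 called members for SALL4, 0 to 6 for VRTN, 0 to 10 for DSCC1, 6 to 16 for SEPHS1, 0 to 4 for SALL4 against VRTN, 0 to 2 for DSCC1 against SEPHS1 and 0 to 0 for Control against Luciferase. The count called over all genes also changed with the library left out. Where a control group kept 1 library, that library was assumed to vary like the other groups. The share of counts then differed from controls by −2.51 to 1.68 points for SALL4, 1.70 to 5.59 for VRTN, 2.94 to 5.74 for DSCC1 and 7.58 to 10.98 for SEPHS1. Set against nuclear protein-coding counts instead of all counts, the differences were 9.87 points for VRTN, 13.9 for DSCC1 and 35.3 for SEPHS1, on a smaller denominator. With nuclear copies added, an alternative chosen after seeing the data, MT-CO3 in place of MT-ATP6 had the highest level per kb in controls. No called member changed sign under any alternative run. MT-ND6 and most tRNA genes had counts near the floor, and fold changes are not given for them.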
